A study of Mus musculus with 65 samples.

Results

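Fezf2, Cadps, Dpp6, Pltp and Bst1 are 5 of the 23755 gene symbols in the deposited count table, and they were chosen because earlier results of these same data showed them altered in dendritic cells without Suv39h1. Fezf2, Cadps and Dpp6 were higher in Suv39h1KO cells, by 10.2-fold to 96.5-fold within a cohort. Pltp and Bst1 were lower, at 0.256 to 0.568 of the level in Suv39h1WT cells of the same cohort. The choice used the Suv39h1 comparison itself, so these differences are given as a description, without a test. The tests of the loss of Ifnar, of stimulation with LPS and of a macrophage line below concern comparisons that the choice did not use. Genes next to the 5 and listed genes were also tested on Suv39h1 loss. Those tests use the same comparison and libraries as the choice and are not independent of it.

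The study holds 65 polyA RNA-seq libraries of mouse cells in 19 groups and 3 experiments. The Suv39h1 experiment has 12 libraries of dendritic cells grown from bone marrow (BMDCs), unstimulated, on the C57BL/6 background. They fall into Suv39h1KO IfnarKO, Suv39h1WT IfnarKO, Suv39h1KO IfnarWT and Suv39h1WT IfnarWT groups of 3, cohorts 1 to 3 in each, all with MyD88WT and TrifWT. The LPS experiment has 35 BMDC libraries, all Suv39h1WT and IfnarWT on C57BL/6, taken at 0, 2 and 4 h of LPS at 100 ng/mL. MyD88KO and TrifKO groups have 3 libraries at each time, and the wild-type groups have 6, 5 and 6. The third experiment has 18 libraries of RAW264.7, a mouse macrophage line of BALB/c origin, with guide 1, guide 2 or a control guide, at 0 or 2 h under an LPS label, 3 libraries each (C1 to C3). The labels do not give the targets of the guides, and their titles say DC where the cell type field says RAW264.7. Nothing in the labels gives the number of animals behind a cohort, so the p-values below measure the spread between libraries.

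Suv39h1 is one of the enzymes that trimethylate histone H3 at lysine 9, a mark bound by HP1 proteins in silent chromatin. Ifnar is the receptor for type I interferons. LPS, a bacterial cell wall lipid, is sensed by TLR4, which signals through the adaptors MyD88 and Trif. Fezf2 encodes a zinc-finger repressor that specifies subcortical projection neurons and drives tissue antigen expression in thymic epithelium. Cadps primes dense-core vesicles for regulated exocytosis in neurons and endocrine cells. Dpp6 is an inactive relative of the peptidase Dpp4 and an auxiliary subunit of Kv4 potassium channels. Pltp transfers phospholipids between lipoproteins and is a target of the liver X receptors (LXR). Bst1, or CD157, is a surface enzyme of the ADP-ribosyl cyclase family that consumes NAD, first known from bone marrow stroma and myeloid cells, and its paralog Cd38 is its neighbour on the chromosome.

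The genes lie at 4 loci. In the GENCODE annotation of GRCm38 (mm10), all 5 are protein coding. Fezf2 is at chr14:12342094-12348189 on the minus strand and Cadps at chr14:12372563-12823079, also minus. The nearest ends of these 2 genes are 24.4 kb apart, but their start sites are 475 kb apart because Cadps is long. Dpp6 is at chr5:26817203-27727505 on the plus strand, Pltp at chr2:164839518-164857711 on the minus strand and Bst1 at chr5:43818885-43843986 on the plus strand. Cd38 follows Bst1 on the same strand at chr5:43868553-43912375, with 24.6 kb between them. Suv39h1 itself is on the X chromosome, so none of the 5 shares a chromosome with it.

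RefSeq promoters (build GRCm38.p6, 300 bases around the start) were at hand for 4 of the 5 genes. They are shown so that the starts of 3 genes that were higher without Suv39h1 can be read beside that of a gene that was lower, which is the last. The counts are per gene and do not show which start was used. CpG pairs are in capitals. They are written 5′ to 3′ on the strand of the gene, for chr14:12345816-12346115 (minus) in Fezf2, chr14:12823030-12823329 (minus) in Cadps, chr5:26817107-26817406 (plus, the first of 3 annotated starts) in Dpp6, and chr2:164857659-164857958 (minus) in Pltp.
Fezf2: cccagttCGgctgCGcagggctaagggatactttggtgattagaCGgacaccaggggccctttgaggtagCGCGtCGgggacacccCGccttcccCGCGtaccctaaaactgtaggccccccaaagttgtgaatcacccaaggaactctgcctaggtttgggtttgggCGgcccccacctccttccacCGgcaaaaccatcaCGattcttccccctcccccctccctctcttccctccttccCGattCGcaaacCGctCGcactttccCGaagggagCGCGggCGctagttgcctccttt
Cadps: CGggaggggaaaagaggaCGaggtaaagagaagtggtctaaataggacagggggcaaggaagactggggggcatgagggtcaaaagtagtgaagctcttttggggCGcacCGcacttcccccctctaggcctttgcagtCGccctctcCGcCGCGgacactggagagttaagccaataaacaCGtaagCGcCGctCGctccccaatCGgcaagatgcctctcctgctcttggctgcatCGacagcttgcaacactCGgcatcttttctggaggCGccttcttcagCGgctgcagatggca
Dpp6: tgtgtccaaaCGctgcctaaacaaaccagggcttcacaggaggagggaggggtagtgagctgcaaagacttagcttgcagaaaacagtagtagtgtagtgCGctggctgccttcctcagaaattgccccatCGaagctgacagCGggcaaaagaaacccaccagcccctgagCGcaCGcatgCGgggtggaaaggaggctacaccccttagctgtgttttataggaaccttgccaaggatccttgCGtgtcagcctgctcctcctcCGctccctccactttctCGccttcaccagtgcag
Pltp: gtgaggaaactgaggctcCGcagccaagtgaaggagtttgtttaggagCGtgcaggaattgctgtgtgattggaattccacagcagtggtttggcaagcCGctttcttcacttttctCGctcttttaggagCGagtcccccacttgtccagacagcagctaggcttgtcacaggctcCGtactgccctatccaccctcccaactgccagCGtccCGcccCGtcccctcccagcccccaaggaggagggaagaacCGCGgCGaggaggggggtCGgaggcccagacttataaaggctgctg
The Fezf2 window holds 20 CpG pairs, Cadps 17, Pltp 13 and Dpp6 10, against a median of 7 over 32851 promoters of that length. As many as in Fezf2 were found in 26.5% of promoters, as many as in Cadps in 31.4%, as many as in Pltp in 37.9% and as many as in Dpp6 in 43.5%. The other 2 annotated starts of Dpp6, not printed, hold 6 and 16 CpG pairs. The letters AGGTCA (a nuclear receptor half-site, in 16.3% of promoters) and CACGTG (an E-box, in 7.15%), searched on both strands, occurred in none of these 4 windows; the third start of Dpp6 holds 1 AGGTCA match and the second holds none. The RefSeq start of Fezf2 lies inside the GENCODE span of the gene.

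Libraries had 36.9 to 95.3 M gene counts (M, 1000000; median 54.7 M), and 43.4 to 95.3 M in the Suv39h1 experiment. Levels below are counts per M counts of the library, scaled by TMM within an experiment (CPM), so they can be compared between libraries of a gene and not between genes. Suv39h1 had 7 to 34 counts in the 6 Suv39h1KO libraries and 1838 to 4554 in the 6 Suv39h1WT libraries, so every library followed its label. Ifnar1 was at 122 to 161 CPM in IfnarKO and 173 to 218 CPM in IfnarWT libraries (log2 difference -0.45, edgeR adjusted p = 0.0306), a partial loss of transcript. Suv39h2, the closest relative of Suv39h1, was not called (log2 fold change 0.18 with Ifnar intact and 0.07 without Ifnar). Of the marker genes for dendritic cells, which include Itgax, Flt3, Zbtb46 and the class II genes, all 10 were tested and none was called on Suv39h1 loss. With Ifnar intact they summed to 23379 to 26353 CPM in Suv39h1KO and 18086 to 23056 CPM in Suv39h1WT libraries. Without Ifnar they summed to 22229 to 23816 CPM in Suv39h1KO and 15439 to 21087 CPM in Suv39h1WT libraries. The genotypes did not overlap in either case, a gap seen for 8.8% and 9.31% of single genes. Median log2 fold changes of the 10 were 0.19 with Ifnar intact and 0.27 without Ifnar. The part of this shift in the results was not tested. In bulk RNA, fewer cells of a type and less RNA per cell cannot be told apart.

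All 5 genes passed the filter on low counts in the Suv39h1 experiment, and in the LPS experiment too. In the first, Fezf2 and the other genes that were higher could pass through the Suv39h1KO libraries alone. Of 14386 genes tested in the Suv39h1 experiment, edgeR called 30 (0.209%) on Suv39h1 loss with Ifnar intact, 22 higher (0.153%) and 8 lower (0.0556%). Without Ifnar it called 32 (0.222%), 27 higher (0.188%) and 5 lower (0.0348%). With cohorts as a block, since cohorts pair these libraries, the counts were 163 with Ifnar intact (84 higher and 79 lower) and 192 without Ifnar (122 higher and 70 lower). Except where a block is named, calls below are from the fit without it, which leaves this pairing out. A gene not called there may be called with the block. With any library left out, the unblocked counts were 11 to 20 with Ifnar intact and 9 to 23 without Ifnar. The libraries of both genotypes did not overlap for 8.8% of genes with Ifnar intact, for 9.31% without Ifnar, and for 1.42% when all 6 Suv39h1KO libraries were set against all 6 Suv39h1WT libraries. The 5 genes are of this last kind, which the way they were chosen brings with it.

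Fezf2 had 7.79, 7.09 and 10.1 CPM in Suv39h1KO IfnarKO libraries of cohorts 1, 2 and 3, against 0.404, 0.450 and 0.321 CPM in Suv39h1WT IfnarKO libraries. With Ifnar intact it had 5.81, 6.36 and 6.41 CPM in Suv39h1KO libraries, against 0.307, 0.288 and 0.466 CPM in Suv39h1WT libraries. Every library without Suv39h1 was above every library with it, and the spread within each genotype was small beside the gap. The log2 fold change was 4.16 ± 0.24 (SE) with Ifnar intact and 4.39 ± 0.24 without Ifnar. In raw counts this was 408 to 861 in Suv39h1KO and 16 to 37 in Suv39h1WT libraries, so the transcript was low but counted in every Suv39h1WT library. Cohort by cohort the ratio of Suv39h1KO over Suv39h1WT ran from 13.8 to 31.3, with a median of 19.1 over 6 pairs. The relative Fezf1 had 0 counts in all 12 libraries.

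Cadps had 8.55, 14.7 and 18.6 CPM in Suv39h1KO IfnarKO libraries, against 0.453, 0.779 and 0.421 CPM in Suv39h1WT IfnarKO libraries. With Ifnar intact it had 6.48, 11.3 and 15.9 CPM in Suv39h1KO libraries, against 0.361, 0.336 and 1.56 CPM in Suv39h1WT libraries. The groups did not overlap, but the 3 cohorts did not sit together as they did for Fezf2. In both Suv39h1KO groups cohort 1 was lowest, cohort 2 was between and cohort 3 was highest. This gave a log2 fold change of 3.99 ± 0.60 with Ifnar intact and 4.63 ± 0.61 without Ifnar, with the larger error that this spread brings. The cohort ratios ran from 10.2 to 44.1 with a median of 18.9. Cadps2, which serves the same vesicle step in other neurons, had 0 to 2 counts in these libraries.

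Dpp6 had 13.3, 15.3 and 21.3 CPM in Suv39h1KO IfnarKO libraries, against 0.630, 0.511 and 0.221 CPM in Suv39h1WT IfnarKO libraries. With Ifnar intact it had 19.8, 18.6 and 15.6 CPM in Suv39h1KO libraries, against 1.03, 1.66 and 0.186 CPM in Suv39h1WT libraries. The Suv39h1KO libraries were close together, and the Suv39h1WT libraries differed more, with cohort 3 lowest in both Suv39h1WT groups. The fold change on the log2 scale was 4.17 ± 0.53 with Ifnar intact and 5.16 ± 0.57 without Ifnar. The cohort ratios ran from 11.2 to 96.5 with a median of 25.5, and the upper end rests on Suv39h1WT libraries with few counts (8 to 138 over the 6, against 716 to 1899 in Suv39h1KO). Dpp10, the other inactive Kv4 subunit of this family, had 14 to 32 counts in Suv39h1KO and 5 to 18 in Suv39h1WT libraries and was not called (log2 fold change 0.69, edgeR adjusted p = 1.0, with Ifnar intact; 1.00, adjusted p = 0.706, without Ifnar). The peptidase Dpp4 had log2 fold changes of -0.18 and 0.14 and was not called either.

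Pltp had 39.97, 37.2 and 33.9 CPM in Suv39h1KO IfnarKO libraries, against 70.3, 77.3 and 79.6 CPM in Suv39h1WT IfnarKO libraries. With Ifnar intact it had 21.4, 21.7 and 31.7 CPM in Suv39h1KO libraries, against 60.4, 84.8 and 65.2 CPM in Suv39h1WT libraries. The Suv39h1KO libraries were the lower ones in each pairing, and those with Ifnar intact were lower than those without Ifnar. On the log2 scale this was -1.49 ± 0.17 with Ifnar intact and -1.03 ± 0.17 without Ifnar. Whether these 2 fold changes differ was not tested, since the gene was chosen on this contrast. The 3 prime end of Pltp overlaps the cathepsin gene Ctsa on the opposite strand by 1515 bases, and Ctsa had log2 fold changes of -0.30 and -0.32 and was not called.

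Bst1 had 45.8, 41.3 and 42.95 CPM in Suv39h1KO IfnarKO libraries, against 99.7, 79.8 and 129 CPM in Suv39h1WT IfnarKO libraries. With Ifnar intact it had 35.98, 33.7 and 38.6 CPM in Suv39h1KO libraries, against 88.5, 89.3 and 98.8 CPM in Suv39h1WT libraries. Relative to their mean, the Suv39h1KO libraries were the most alike of any of the 5 genes, at 39.7 ± 4.50 CPM (SD, n = 6), against 97.5 ± 17.1 CPM (SD, n = 6) in Suv39h1WT libraries. On the log2 scale the difference was -1.35 ± 0.15 with Ifnar intact and -1.25 ± 0.15 without Ifnar. The cohort ratios ran from 0.333 to 0.518 with a median of 0.398. The first bases of Bst1 overlap the F-box gene Fbxl5 on the opposite strand by 2754 bases, and Fbxl5 had log2 fold changes of -0.26 and -0.26 and was not called (adjusted p = 0.608 and 0.539). Whether the authors counted by strand is not given in the sources used here, so reads in these overlaps may belong to either gene.

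**Figure D1:**
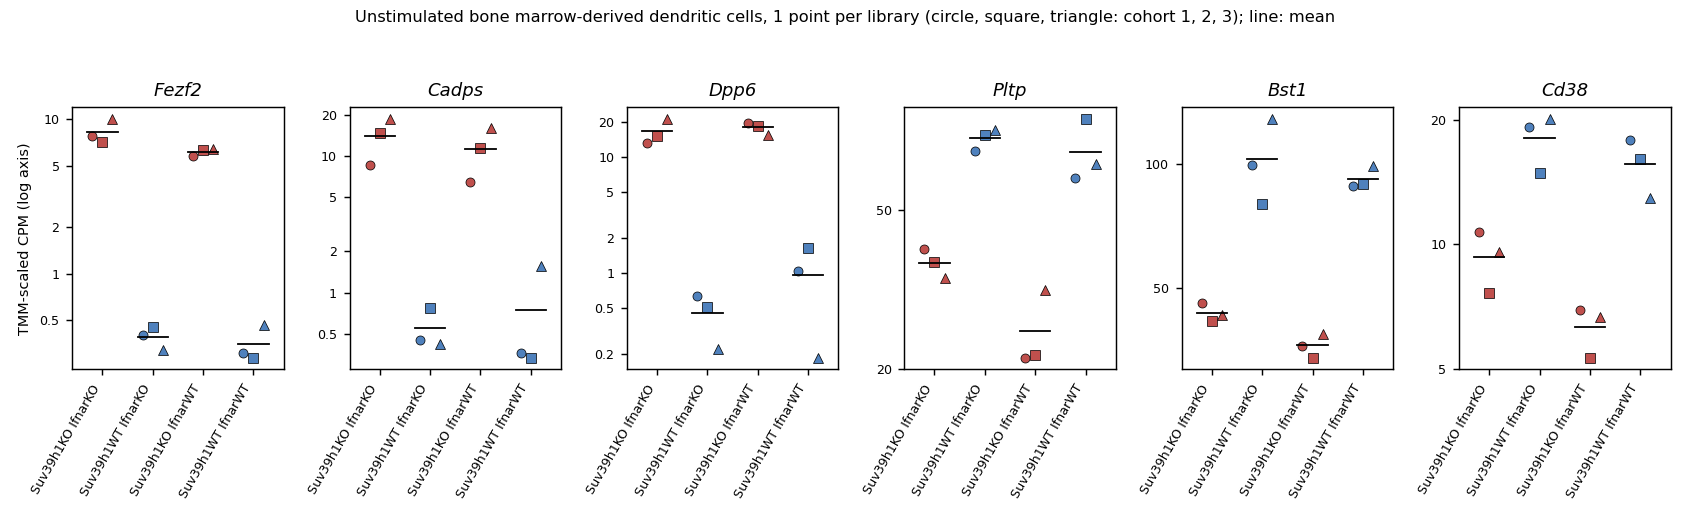
Levels of the 5 genes and of Cd38 in the 12 unstimulated BMDC libraries, in TMM-scaled CPM on a log axis, with 1 point per library (circle, square and triangle for cohorts 1, 2 and 3) and a line at the group mean. Fezf2, Cadps and Dpp6 stand above in the Suv39h1KO groups, and Pltp, Bst1 and Cd38 stand below, with no overlap of the Suv39h1 genotypes within an Ifnar genotype.

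Cd38 was the only gene called among the neighbours, 1 of 11 tested with Ifnar intact and 0 of 11 without Ifnar, where 0.209% and 0.222% of all genes were called. The 3 protein-coding genes on each side of each of the 5 came to 24 other genes, of which 21 were in the table and 11 were tested. Cd38, the other NAD-consuming cyclase of this family, had 10.7, 7.61 and 9.58 CPM in Suv39h1KO IfnarKO libraries, against 19.2, 14.9 and 20.1 CPM in Suv39h1WT IfnarKO libraries. With Ifnar intact it had 6.95, 5.32 and 6.69 CPM in Suv39h1KO libraries, against 17.9, 16.1 and 12.9 CPM in Suv39h1WT libraries. It was thus lower in Suv39h1KO libraries in both Ifnar genotypes without overlap. The log2 fold change with Ifnar intact was -1.31 ± 0.19 (edgeR adjusted p = 0.0136), and without Ifnar it was -0.96 ± 0.18 (adjusted p = 0.0714), which was not called. With Ifnar intact, the call was lost when the fit held only the compared groups (adjusted p = 0.0986) and when any of 4 of the 6 libraries was left out (adjusted p 0.0577 to 0.0745). Without Ifnar, DESeq2 called it (adjusted p = 0.000186), as did the fit with cohorts as a block (adjusted p = 0.00509). Bst1 and Cd38 were lower by a similar amount in these libraries, but Bst1 was chosen for its own change, so no test compares them. The tests of Cd38 use the comparison and libraries that chose Bst1, with which Cd38 was at r = 0.94 over the 12 libraries. They are therefore not independent of that choice.

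The neighbours between or beside the other loci were not called. The log2 fold changes of the 10 tested neighbours other than Cd38 ran from -3.04 to 0.13 with Ifnar intact and from -0.98 to 0.18 without Ifnar. The lowest was that of Spata25 beside Pltp (adjusted p = 0.201), a gene of low counts. Below Fezf2, 3830406C13Rik had 0.13 and 0.18, and above Dpp6, Paxip1, a DNA damage response protein, had 0.05 and 0.06. Around Pltp, the ubiquitin ligase gene Neurl2 had -0.78 and -0.49, Pcif1, which methylates mRNA caps, had 0.07 and 0.13, the transcription factor Zfp335 had -0.05 and 0.01, and the matrix protease Mmp9 had -0.77 and -0.53. Below Bst1, the cilium gene Cc2d2a had -0.73 and -0.13. Synpr, the neighbour of Cadps on its other side, Ptprg near Fezf2, and Speer4b and Gm7361 near Dpp6 had too few counts to be tested.

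**Figure D2:**
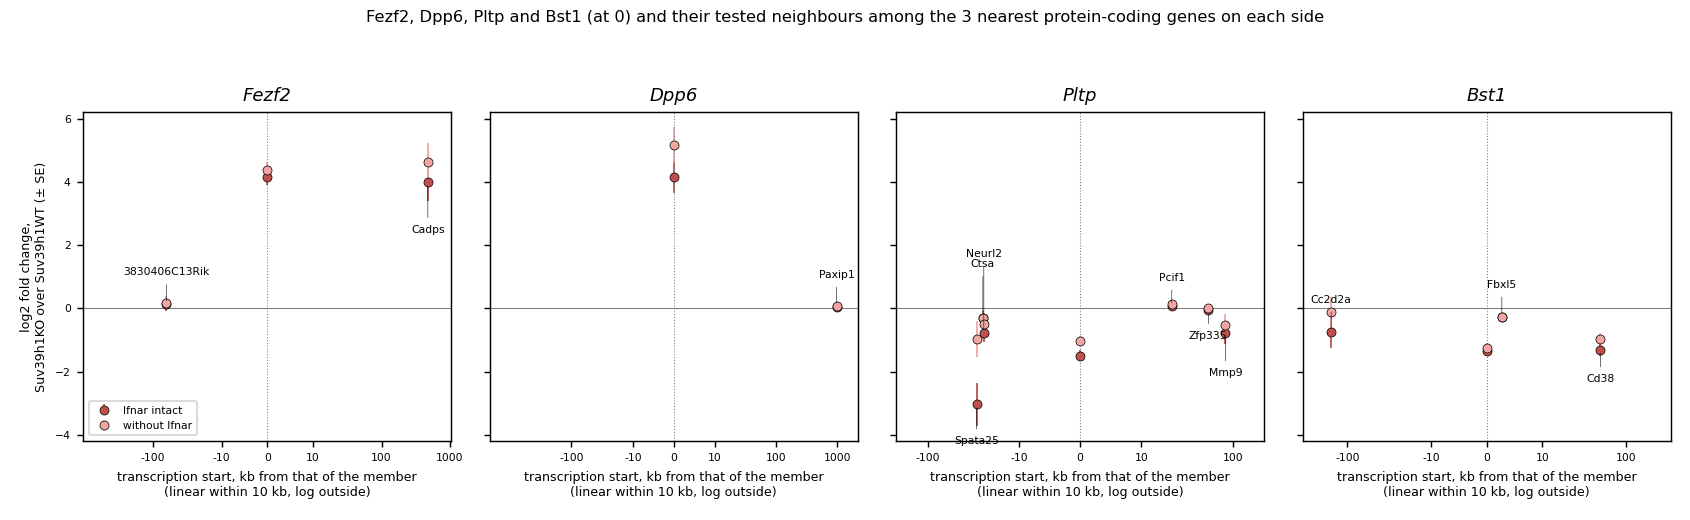
Log2 fold change of Suv39h1KO over Suv39h1WT (with SE) for each tested gene around Fezf2 and Cadps, Dpp6, Pltp, and Bst1, with Ifnar intact in dark and without Ifnar in light symbols, by the distance of its start site in kb (linear within 10 kb, log outside). Fezf2 and Cadps stand above their neighbours, and Bst1 and Cd38 stand together below 0.

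Genes that work with the 5 were mostly not called, as were nearly all genes (0.209% and 0.222% were called). Of the paralogs and family members, 11 were in the table and 8 were tested, and only Cd38 was called, with Ifnar intact. The list median was -0.03 with Ifnar intact and 0.03 without Ifnar, against 0.01 over all genes in both. Of the Kv4 channel partners of Dpp6, which are pore and KChIP subunits, 3 of 7 were tested and none was called (medians 0.13 and 0.16). Of 29 regulated exocytosis genes with Cadps, which include SNARE proteins, synaptotagmins and Munc13 proteins, 21 were tested and none was called (medians -0.02 and 0.03). Of 21 lipoprotein and LXR target genes with Pltp, 20 were tested and none was called (medians -0.09 and -0.03). Their log2 fold changes, with Ifnar intact and without Ifnar, were not of one kind. The cholesterol exporter Abca1, an LXR target like Pltp, had -0.55 and -0.63, and Scd1 had -1.03 and -0.40. Abcg1 had -0.16 and -0.04, Srebf1 had 0.03 and 0.12, and Lpcat3 had 0.08 and 0.10. Of 23 NAD metabolism genes with Bst1, all were tested and Cd38 alone was called, with Ifnar intact (medians 0.02 and 0.11). Of 17 partners of Fezf2 in cortical neurons and thymic epithelium, 7 were tested and none was called (medians -0.06 and 0.09), and the neural regulator Pax6 had 1.02 (adjusted p = 0.462) and 0.87 (adjusted p = 0.571). Of 12 genes of the H3K9 methylation machinery, all were tested and Suv39h1 alone was called (medians 0.05 and 0.04).

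Marker genes of other cells were set beside these values. The 8 neuronal markers summed to 0.926 to 1.82 CPM in Suv39h1KO and 0.672 to 1.97 CPM in Suv39h1WT libraries, 2 of 8 had enough counts to be tested and Rbfox3 was at 0 in both Suv39h1WT groups. Those tested were not called (medians 0.63 with Ifnar intact and 1.08 without Ifnar). Without Ifnar the 8 summed to 0.982 to 1.43 CPM in Suv39h1KO libraries, against 0.706 to 0.923 CPM in Suv39h1WT libraries, without overlap. A gap of this kind was seen for 9.31% of single genes in that comparison. With Ifnar intact the sums overlapped, at 0.926 to 1.82 CPM in Suv39h1KO and 0.672 to 1.97 CPM in Suv39h1WT libraries. Macrophage and monocyte markers summed to 3704 to 4476 CPM in Suv39h1KO and 3435 to 4261 CPM in Suv39h1WT libraries, and granulocyte markers to 112 to 1640 CPM in Suv39h1KO and 95.9 to 1003 CPM in Suv39h1WT libraries. Mast cell and basophil markers summed to 54.3 to 124 CPM in Suv39h1KO and 48.6 to 104 CPM in Suv39h1WT libraries, with medians of 1.23 and 1.08 (log2) over the 5 of 8 tested, none of them called. Fibroblast and stroma markers summed to 6.09 to 9.03 CPM in Suv39h1KO IfnarKO libraries, against 4.61 to 6.06 CPM in Suv39h1WT IfnarKO libraries, without overlap, a gap that 9.31% of single genes also showed. With Ifnar intact they summed to 14.6 to 25.3 CPM in Suv39h1KO libraries, against 6.98 to 16.8 CPM in Suv39h1WT libraries. All 6 were tested and none was called, with medians of 1.06 with Ifnar intact and 0.87 without Ifnar. B and T cell markers summed to 1.63 to 3.34 CPM in Suv39h1KO and 1.28 to 3.19 CPM in Suv39h1WT libraries, and plasmacytoid dendritic cell markers to 122 to 239 CPM in Suv39h1KO and 118 to 240 CPM in Suv39h1WT libraries. The part of these shifts in the 5 genes was not tested.

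The loss of Ifnar was tested as an average over both Suv39h1 genotypes, a contrast that the choice of genes did not use. None of the 5 was among the 61 genes called (0.424%; 9 higher and 52 lower). Pltp was nearest, at 56.4 CPM in IfnarKO and 47.5 CPM in IfnarWT libraries on average, a log2 difference of 0.34 ± 0.12 (unadjusted p = 0.0138, edgeR adjusted p = 0.589; with cohorts as a block, adjusted p = 0.125). Fezf2 averaged 4.35 CPM in IfnarKO and 3.27 CPM in IfnarWT libraries (0.31 ± 0.16, adjusted p = 0.904). Bst1 had 0.21 ± 0.10 (adjusted p = 0.881), Cadps -0.01 ± 0.38 (adjusted p = 0.998) and Dpp6 -0.61 ± 0.36 (adjusted p = 0.940). No gene of the 7 lists was called either. Some markers of other cells moved on this contrast: 1 of 6 fibroblast and stroma markers was called lower (median -1.50; sums of 4.61 to 9.03 CPM in IfnarKO and 6.98 to 25.3 CPM in IfnarWT libraries), as was 1 of 5 plasmacytoid dendritic cell markers (sums of 118 to 151 CPM in IfnarKO and 147 to 240 CPM in IfnarWT libraries). Their part in these values was not tested. The errors of Cadps and Dpp6 were the widest, and a log2 change of the size of its error could not be told from none.

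The genes most like each of the 5 across the 12 libraries were found by Pearson's r of log2 CPM, which here follows the Suv39h1 genotype that all share. For Fezf2 these were C130026I21Rik (r = 0.99), 9030624G23Rik (0.99) and Tenm2, a neuronal adhesion protein (0.98). For Cadps they were Gm12159 (0.99) and Fezf2 (0.98). For Dpp6 they were the homeobox factor Pbx3 (0.97), the chloride channel Ano2 (0.96) and C130026I21Rik (0.95). For Pltp they were Bst1 (0.94), Echdc3 (0.94) and C1qtnf6 (0.93), and for Bst1 they were Cttn, an actin-binding protein (0.96), Suv39h1 itself (0.95) and Efemp2 (0.95). These are descriptions of libraries that fall in 2 genotypes, with n = 12.

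The LPS experiment asks how the 5 genes behave on stimulation in cells that all have Suv39h1. Its labels were checked first. Myd88 had 46.2 to 48.6 CPM at 0 h in MyD88KO libraries and 72.2 to 80.7 CPM in wild-type libraries, without overlap. Ticam1, which encodes Trif, had 2.46 to 50.3 CPM (median 31.7) in the 9 libraries labelled TrifKO and 23.8 to 58.4 CPM in the other 26, and only 2 of the 9, both of cohort 3, were below all others. The level of Ticam1 therefore does not separate the libraries labelled TrifKO. Xist, a transcript of female cells, had 0 to 3 counts in cohort 3 of the wild type and 33401 to 67116 in cohorts 1 and 2, whereas in the libraries labelled TrifKO each cohort held both kinds. The 2 libraries with low Ticam1, at 2 and 4 h, had 1 and 0 Xist counts, whereas cohort 3 at 0 h had 61591. The 0 h libraries labelled TrifKO had 29.8 to 31.7 CPM of Ticam1. Times within the libraries labelled TrifKO may therefore not compare like cells, and their differences are differences between labelled groups. Cohort 3 was below cohorts 1 and 2 in 8 of 9 groups for Bst1, in 9 of 9 for Cd38 and in 6 of 9 for Pltp, but in 4 of 9 for Cadps, 3 of 9 for Dpp6 and 1 of 9 for Fezf2. How many other genes were lower in cohort 3 in as many groups was not counted, so this is a description. Each knockout group held 1 library of cohort 3. In the wild type, macrophage and monocyte markers summed to 1544 to 2594 CPM in cohort 3 and 2125 to 2930 CPM in cohorts 1 and 2, and mast cell and basophil markers to 76.2 to 105 CPM in cohort 3 and 44.6 to 73.3 CPM in cohorts 1 and 2, without overlap. The part of cohort 3 in the results was not tested beyond the values given without it. Library numbers fell into a low and a high set. All MyD88KO libraries were of the low set, and all libraries labelled TrifKO were of the high set. Only the wild type had both, so a comparison of a knockout with all wild-type libraries also mixes the sets.

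Fezf2 fell after LPS in wild-type cells. It had a lowest, median and highest level of 1.04, 2.07 and 4.16 CPM at 0 h (n = 6), then 0.227, 0.441, 0.483, 0.753 and 1.12 CPM at 2 h, then 0.168, 0.364 and 1.67 CPM at 4 h (n = 6). A single library at 2 h and a single one at 4 h lay within the range at 0 h. The log2 fold change was -1.97 ± 0.55 at 2 h (edgeR adjusted p = 0.00372) and -2.12 ± 0.52 at 4 h (adjusted p = 0.000661). Such calls were common, since 45.9% of 14475 genes were called at 2 h (24.6% lower) and 65.1% at 4 h (35.1% lower). The 4 h call was lost in the set of low library numbers alone (-1.62, adjusted p = 0.0734), and stood with cohort 3 left out (2 h, -2.41 with adjusted p = 0.0159; 4 h, -2.11 with adjusted p = 0.0101). Suv39h1 itself fell by less in these cells, by 0.44 (adjusted p = 0.0224) and 0.59 (adjusted p = 0.000896) on the log2 scale, and its 4 h call was lost with cohort 3 left out (-0.40, adjusted p = 0.0687).

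The responses of Fezf2 in the knockouts were less certain. In MyD88KO cells it had 2.47, 0.622 and 0.668 CPM at 0 h, 1.96, 0.485 and 0.895 CPM at 2 h, then 1.198, 0.455 and 0.412 CPM at 4 h. These levels overlapped at all times, and neither 2 h (-0.17 ± 0.69, adjusted p = 0.930) nor 4 h (-0.86 ± 0.71, adjusted p = 0.368) was called. In the libraries labelled TrifKO it had 1.15, 2.14 and 2.58 CPM at 0 h, 0.629, 0.768 and 1.12 CPM at 2 h, then 0.196, 0.284 and 0.558 CPM at 4 h, lower at both later times without overlap with 0 h. Such a gap was seen for 49.2% of genes at 2 h and 52.2% at 4 h. The 4 h fall was called (-2.50 ± 0.75, adjusted p = 0.0136) and was lost without cohort 1 at 4 h (-2.24, adjusted p = 0.0667) or cohort 2 at 4 h (-2.38, adjusted p = 0.0571). At 2 h it was not called (-1.21 ± 0.70, adjusted p = 0.240). In these groups 16.1% and 34.1% (MyD88KO) and 20.7% and 25.9% (labelled TrifKO) of genes were called at 2 and 4 h. The difference of the MyD88KO response from the wild-type response was 1.80 ± 0.88 at 2 h (adjusted p = 0.556) and 1.26 ± 0.87 at 4 h (adjusted p = 0.447), so that MyD88KO cells were not shown to respond differently; these comparisons called 0.442% and 6.86% of genes. For the libraries labelled TrifKO it was 0.76 (adjusted p = 1.0) and -0.38 (adjusted p = 0.822), where 1.38% and 18.3% of genes were called. Unstimulated, Fezf2 in MyD88KO cells differed from the wild type by -0.90 ± 0.61 (adjusted p = 0.977), where 0.0622% of genes were called.

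Cadps and Dpp6, the other genes that were higher without Suv39h1, had no called LPS response. Cadps had 1.46 to 3.20 CPM at 0 h, 1.34 to 2.72 CPM at 2 h and 1.06 to 2.72 CPM at 4 h in wild-type cells. The log2 fold changes were -0.39 ± 0.39 (adjusted p = 0.445) and -0.42 ± 0.37 (adjusted p = 0.325), at 2 and 4 h. The 4 h value depended on the scaling, since library totals without TMM gave -1.05 (adjusted p = 0.0109), where the median of all genes moved to -0.71. In MyD88KO cells Cadps had 2.74, 1.03 and 0.477 CPM at 0 h, 3.18, 0.783 and 0.529 CPM at 2 h, then 3.11, 0.932 and 2.18 CPM at 4 h. Cohort 1 was the highest at every time there. In the libraries labelled TrifKO it had 2.68, 2.03 and 2.02 CPM at 0 h, 1.41, 2.06 and 1.86 CPM at 2 h, then 0.748, 0.965 and 1.38 CPM at 4 h, where 4 h did not overlap 0 h, as for 52.2% of genes, but was not called (-1.12 ± 0.54, adjusted p = 0.127). Dpp6 had 0.624 to 2.21 CPM at 0 h, 0.680 to 2.30 CPM at 2 h and 0.487 to 2.02 CPM at 4 h in wild-type cells, with log2 fold changes of 0.12 and -0.03. It had 1.43, 0.568 and 0.286 CPM at 0 h, 1.73, 0.447 and 0.244 CPM at 2 h, then 1.04, 0.542 and 0.354 CPM at 4 h in MyD88KO cells, with cohort 1 again the highest. In the libraries labelled TrifKO it had 0.387, 0.873 and 0.705 CPM at 0 h, 0.499, 0.809 and 1.10 CPM at 2 h, then 0.605, 0.340 and 0.889 CPM at 4 h.

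Pltp and Bst1, the genes that were lower without Suv39h1, had no LPS response called in the fit without a cohort block either. Pltp had 18.3 to 49.2 CPM at 0 h, 19.7 to 50.9 CPM at 2 h and 19.5 to 54.0 CPM at 4 h in wild-type cells, with log2 fold changes of 0.05 ± 0.40 and 0.05 ± 0.38. Bst1 had 31.9 to 88.1 CPM at 0 h, 37.6 to 105 CPM at 2 h and 50.1 to 135 CPM at 4 h, with log2 fold changes of 0.24 (adjusted p = 0.637) and 0.57 ± 0.35 (adjusted p = 0.147). As a description without a test, Bst1 was higher at 4 h than at 0 h in all 6 wild-type pairs of the same cohort and library set, and in all 3 MyD88KO cohorts. How many other genes rose in all these pairs was not counted. In the wild type at 4 h 65.1% of genes were called in either direction, and 30.0% were called higher. With cohorts as a block, Bst1 was called in the wild type at 4 h. The block was not taken as a pairing in this experiment. With cohort 3 left out, the 4 h values were 0.08 ± 0.46 for Pltp (adjusted p = 0.892) and 0.58 ± 0.39 for Bst1 (adjusted p = 0.213). Pltp had 47.2, 32.3 and 17.8 CPM at 0 h, 47.4, 35.4 and 16.97 CPM at 2 h, then 33.5, 30.1 and 8.94 CPM at 4 h in MyD88KO cells. It had 62.8, 51.2 and 50.8 CPM at 0 h, 65.3, 53.5 and 14.2 CPM at 2 h, then 51.4, 59.9 and 12.4 CPM at 4 h in the libraries labelled TrifKO, where cohort 3 was far below the others at 2 and 4 h only. Those 2 libraries of cohort 3 are the ones with low Ticam1, which its 0 h library did not have. The 4 h difference of Pltp from 0 h there was -0.41 ± 0.53 (adjusted p = 0.620), and -0.03 with cohort 3 left out. In MyD88KO cells Bst1 had 43.3, 79.3 and 30.2 CPM at 0 h, 58.3, 91.6 and 28.7 CPM at 2 h, then 68.0, 101 and 31.4 CPM at 4 h. In the libraries labelled TrifKO it had 98.9, 94.7 and 95.4 CPM at 0 h, 110, 98.5 and 47.3 CPM at 2 h, then 108, 110 and 49.3 CPM at 4 h, with the same 2 libraries of low Ticam1 the lowest. The 3 unstimulated libraries labelled TrifKO lay above all 6 wild-type ones, which do not overlap for 4.59% of genes, but the difference was not called (0.72 ± 0.41, adjusted p = 0.857), as no gene was in that comparison (0.0%, and 0 with DESeq2, with 515 genes at an unadjusted p under 0.05). Pltp in the same comparison had 0.54 (adjusted p = 0.857). This comparison also mixes the library-number sets, since the libraries labelled TrifKO are all of the high set. In cohorts 1, 2 and 3 of the wild type at 0 h, Bst1 had 88.1, 77.8 and 31.9 CPM in the high set. In the low set it had 58.7, 52.0 and 42.5 CPM.

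Cd38, the neighbour of Bst1, rose after LPS. In wild-type cells Cd38 had 4.26 to 22.4 CPM at 0 h and 43.2 to 203 CPM at 4 h, without overlap. It rose by a log2 fold change of 2.87 ± 0.60 at 2 h (edgeR adjusted p = 0.000218) and 3.50 ± 0.60 at 4 h (adjusted p = 8.13e-06). In MyD88KO cells it rose by 2.48 (adjusted p = 0.0358) and 2.56 (adjusted p = 0.0163), and in the libraries labelled TrifKO by 2.31 (adjusted p = 0.0396) and 2.64 (adjusted p = 0.0165). The wild-type calls stood under every alternative. Those of the knockouts did not, as each was lost when a single library was left out (adjusted p up to 0.156 in MyD88KO and 0.124 in the libraries labelled TrifKO). Without a cohort block, Bst1 was not called in any of these 6 comparisons. With the block, Bst1 was called in the wild type at 4 h. Whether the responses of the 2 genes differ was not tested.

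**Figure D3:**
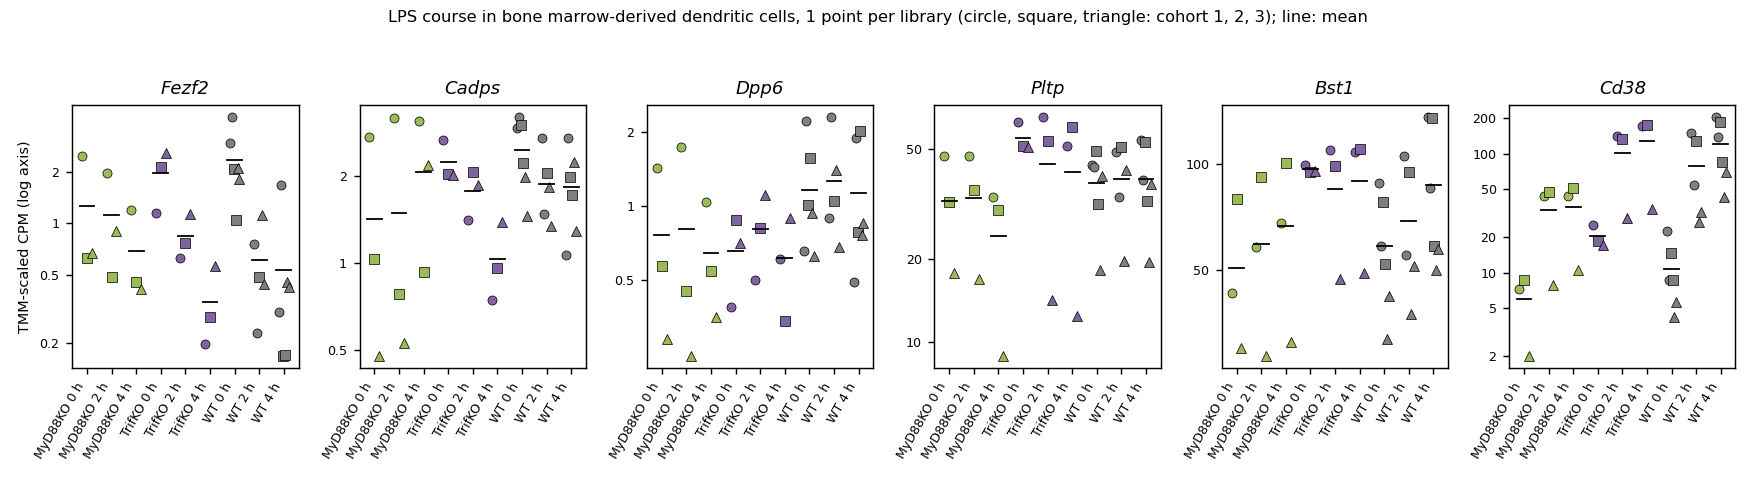
Levels of the 5 genes and of Cd38 in the 35 BMDC libraries of the LPS experiment, in TMM-scaled CPM on a log axis, for MyD88KO, libraries labelled TrifKO and wild type at 0, 2 and 4 h, with 1 point per library and a line at the group mean. In wild-type cells Fezf2 is lower at 2 and 4 h, apart from a single library at each of these times within the 0 h range. Cd38 is higher, and Cadps, Dpp6, Pltp and Bst1 overlap between times. In the libraries labelled TrifKO, Fezf2 and Cd38 at 2 and 4 h and Cadps at 4 h do not overlap 0 h. The same holds for 49.2% of genes at 2 h and 52.2% at 4 h.

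Many genes that work with the 5 were called after LPS in the wild type, as many genes were. At 4 h, 65.1% of all genes were called with a median log2 fold change of -0.07. Of 8 paralogs, 3 rose and 1 fell (median 0.16): the peptidase Fap by 3.80, Cd38 by 3.50 and Dpp4 by 1.06, while Dpp7 fell by 0.48. The rise of Dpp4 depended on the scaling (0.39, adjusted p = 0.149, without TMM). Of 3 Kv4 partners tested, 2 fell, Kcnip3 by 2.50 and the pore subunit Kcnd1 by 0.88. Of 22 exocytosis genes, 9 rose and 8 fell (median -0.00); the syntaxin Stx1a fell by 3.01 and Syt11 by 2.08, and Sytl4 rose by 2.15 and Stxbp3 by 1.85. Of 20 lipoprotein and LXR genes, 4 rose and 7 fell (median 0.07); the desaturases Scd2 and Scd1 fell by 1.92 and 1.48 (Scd1 was not called in either library set alone), and the LXR partner Rxra fell by 1.52. Of 23 NAD genes, 8 rose and 10 fell (median 0.02), with Nampt, which salvages nicotinamide, up by 2.62 and Ido1, which degrades tryptophan, up by 2.66, and with Qprt and Sarm1 down by 2.79 and 2.68 (Sarm1 with cohort 3 left out -1.91, adjusted p = 0.0795). Of 7 partners of Fezf2, 4 rose and 3 fell (median 0.64): the homeobox factor Lhx2 rose by 6.55 and the corepressor Tle3 by 2.28, and Pax6 fell by 1.74. Of 12 H3K9 genes, 2 rose and 5 fell (median -0.04), with the H3.3 chaperone Daxx up by 3.66, the HP1 protein gene Cbx3 down by 1.64 and Trim28 down by 0.87.

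Across the 35 libraries of this experiment, where no Suv39h1 genotype separates them, Fezf2 and Cadps were at r = 0.53 and Pltp and Bst1 at r = 0.77. Cadps and Dpp6, on different chromosomes, were at r = 0.62, and Fezf2 and Dpp6 at r = 0.25. The genes nearest to Fezf2 were Pgap6 (r = 0.83), Srms (0.82) and Fgfr1 (0.82), and to Cadps Zfp872 (0.74), Naxe (0.72) and Slc4a8 (0.71). Dpp6 was nearest to Rab13 (0.75), Anapc15 (0.74) and Gyg (0.71), Pltp to the platelet factor Pf4 (0.89), Sgsm1 (0.89) and Ltbp3 (0.88), and Bst1 to the lactonase Pon3 (0.95), Armcx3 (0.94) and the tartrate-resistant phosphatase Acp5 (0.94). These libraries share cohorts and times, and the values are descriptions.

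The level of Fezf2 in Suv39h1WT cells differed between the experiments. Unstimulated wild-type cells of the LPS experiment had 1.04 to 4.16 CPM, against 0.288 to 0.466 CPM in the Suv39h1WT IfnarWT libraries of the Suv39h1 experiment. The scaling was done within each experiment, and no test was made across them. Both ranges were below the 5.81 to 10.1 CPM of Suv39h1KO libraries.

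In RAW264.7 cells, 3 of the 5 genes passed the filter on low counts. Fezf2 had 0 counts in all 18 libraries, Dpp6 had 0 to 2 and Cd38 had 0 to 2. Cadps had 10.1, 9.85 and 15.4 CPM at 2 h with the control guide, against 8.29, 7.07 and 10.3 CPM at 0 h, a log2 fold change of 0.47 ± 0.17 (edgeR adjusted p = 0.0281; 51.6% of 13078 genes were called). The levels at 2 h and 0 h overlapped, and the call was lost with library totals in place of TMM (0.29, adjusted p = 0.159), with only the compared groups in the fit (adjusted p = 0.0584), and without the C1 (adjusted p = 0.0766) or C2 library at 0 h (adjusted p = 0.129) or the C3 library at 2 h (0.23, adjusted p = 0.237). Bst1 and Pltp were not called after LPS (0.06, and -0.06 ± 0.09 with adjusted p = 0.607).

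Guide 2 was the guide with a called effect on one of the genes. Bst1 had 36.3, 34.1 and 33.1 CPM with guide 2 at 0 h, against 23.9, 24.7 and 26.4 CPM with the control guide. At 2 h it had 34.2, 33.1 and 35.3 CPM with guide 2, against 24.4, 25.8 and 28.2 CPM with the control guide. All guide 2 libraries were above all control libraries at the same time; such a gap, in either direction, was seen for 24.2% of genes at 0 h and 20.8% at 2 h. The log2 fold change was 0.47 ± 0.07 at 0 h (edgeR adjusted p = 0.00117) and 0.39 ± 0.07 at 2 h (adjusted p = 0.00485), in comparisons that called 4.53% and 5.96% of genes. The 2 h call was lost with only the compared groups in the fit (adjusted p = 0.0584). With guide 1, Bst1 had 23.5, 23.9 and 25.8 CPM at 0 h, then 24.7, 24.02 and 28.4 CPM at 2 h, amid the control libraries (-0.03 at both times), where 2.24% and 3.08% of genes were called. The difference between the guides was not tested.

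Cadps had 11.9, 11.98 and 11.2 CPM with guide 2 at 0 h and 15.6, 15.7 and 15.9 CPM at 2 h, above all control libraries at each time, but was not called (0.46 ± 0.17, adjusted p = 0.147; 0.41 ± 0.17, adjusted p = 0.157). At 2 h it was called when the highest control library, C3, was left out (0.65, adjusted p = 0.0188). With cohorts as a block it was called at both times. With guide 1 it had 8.78, 10.7 and 12.7 CPM at 0 h, then 13.4, 11.7 and 15.3 CPM at 2 h (0.33, adjusted p = 0.427; 0.19, adjusted p = 0.649). Pltp had 230, 214 and 184 CPM with guide 2 at 0 h and 237, 226 and 211 CPM with guide 1, against 212, 208 and 221 CPM with the control guide, and at 2 h it had 228, 204 and 167 CPM with guide 2 and 223, 212 and 202 CPM with guide 1, against 196, 196 and 221 CPM with the control guide. Its log2 fold changes over both guides and times were -0.04 to 0.07, and none was called. Some of the 20 lipoprotein and LXR genes tested were called under either guide, where 4.53% and 5.96% (guide 2) and 2.24% and 3.08% (guide 1) of all genes were called at 0 and 2 h. Under guide 2 at 0 h, Abca1 (1.04, adjusted p = 0.000689) and the lipase gene Lpl (0.63, adjusted p = 3.49e-06) rose and Apoe (-0.47, adjusted p = 0.0214) fell. At 2 h Abca1 (0.89), Lpl (0.57) and Npc2 (0.25) rose and Apoe (-0.50) fell. The calls of Abca1 and Lpl stood under every alternative, whereas that of Apoe was lost at 0 h without any of 4 of the 6 libraries (adjusted p 0.0609 to 0.126), and those of Npc2 and Apoe were lost at 2 h with only the compared groups in the fit (adjusted p = 0.139 and 0.108). Under guide 1, in genes named after their values were seen, Lpl (0.24) and the lipoprotein receptor gene Scarb1 (0.26) rose and Arl4c, an LXR target, fell (-1.44, adjusted p = 5.66e-06) at 0 h, and Scarb1 rose (0.27) and Arl4c fell (-1.20, adjusted p = 7.76e-05) at 2 h. The calls of Arl4c stood under every alternative, and those of Lpl (adjusted p up to 0.119) and Scarb1 (up to 0.194) did not. Of 17 genes of the NAD list, which does not hold Bst1, none was called under guide 2, and the kynurenine hydroxylase Kmo was called lower under guide 1 at 2 h (-2.06, adjusted p = 0.0397, lost under 5 of 11 alternatives).

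**Figure D4:**
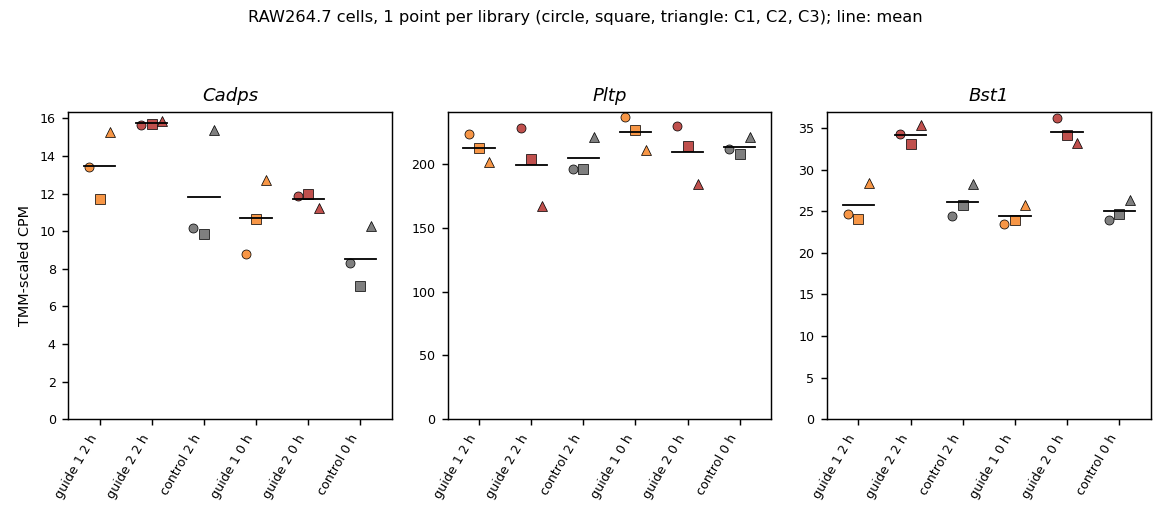
Levels of Cadps, Pltp and Bst1 in the 18 RAW264.7 libraries, in TMM-scaled CPM on a linear axis from 0, for guide 1, guide 2 and the control guide at 2 h and then at 0 h, with 1 point per library (circle, square and triangle for C1, C2 and C3) and a line at the mean. Bst1 is higher with guide 2 than with the control guide at both times, and Pltp overlaps between guides.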

How the data were processed

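Gene counts of 65 mouse libraries were used as deposited by the authors: raw counts per gene symbol, for which the submitters' processing notes list STAR, HOMER, DESeq2 and mm10 without versions. Whether counting used strand is not given in the sources used here. The repeat table was not used, and 0 per-sample columns were left out. The 5 genes and all lists were chosen with earlier results of these data known.

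Each experiment was fitted on its own in R 4.3.3 with edgeR 4.0.16: filterByExpr (14386, 14475 and 13078 genes left), TMM scaling, 1 term per group, quasi-likelihood F tests, and Benjamini-Hochberg adjustment over all tested genes with a threshold of 0.05. Standard errors are log2 fold changes divided by the root of F. Correlations used log2 CPM with a prior count of 2. "Called" means past the threshold. The script was tested on simulated data.

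Libraries had 36.9 to 95.3 M counts. No 2 of the 88 within-group pairs were identical. In the Suv39h1 experiment same-numbered cohorts deviated together (r 0.268 to 0.615), so cohorts pair its libraries. Up to 2 wild-type libraries of the LPS experiment share a cohort number, and they were counted as separate libraries of a low and a high library-number set.

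Named were the 5 genes, checks of the labels, paralogs, nearest neighbours, the 3 genes of highest correlation, and up to 4 called genes of each list by size of fold change; a few that this rule names are not reported here. Alternatives were DESeq2 1.42.0, no filter, library totals without TMM, only the compared groups, cohorts as a block, each library left out, either library set, a set term, summed cohort libraries, and, chosen after seeing the data, cohort 3 left out of the wild type or of the libraries labelled TrifKO.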

Additional observations from a re-analysis of the deposited data

Results flagged for a closer look

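Fezf2 in wild-type cells at 4 h of LPS had a highest library, of cohort 1 in the low library-number set, at 1.67 CPM, far from the other 5 at 0.168 to 0.452 CPM. Without it the fall of Fezf2 at 4 h was -2.95 (log2, edgeR adjusted p = 9.36e-06), against -2.12 with it. In all, 15 combinations of gene and group were examined in this way, and chance flags about 1 in 20.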

How the results depend on the processing

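No value of the 5 genes and no count reversed; Arl4c in the wild type at 4 h, not called as reported (0.07, adjusted p = 0.359), reversed with library totals without TMM (-0.57, adjusted p = 9.32e-08). Here TrifKO means the libraries labelled TrifKO. Of the values of the 5 genes, 649 of those under other settings kept their side of the threshold, 7 became called and 4 lost the call. With a library left out, 877 kept it, 1 became called, 5 lost it and 2 moved beyond the spread. These tallies include the Suv39h1 comparisons that chose the genes. A value of those comparisons that kept its side is no support for the difference.

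With DESeq2, the block and only the compared groups, Suv39h1 loss with Ifnar intact called 120, 163 and 9 genes (30 as reported) and without Ifnar 131, 192 and 20 (32). Ifnar loss called 161 with DESeq2 and 336 with the block (61). In RAW264.7 cells the 3 settings gave 557, 903 and 497 genes for guide 1 at 0 h (293), and 703, 1240 and 241 at 2 h (403); for guide 2, DESeq2 gave 957 and the block 1647 at 0 h (592), and the 3 settings gave 1209, 2072 and 140 at 2 h (779).

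The low set alone called 3826 genes for the wild-type response at 2 h (6641). Only the compared groups called 4512 for TrifKO at 2 h (2997). MyD88KO minus wild type at 2 h (64) called 185 with DESeq2, 147 with the block, 35 with only the compared groups, 6 in the low and 258 in the high set. At 4 h (993) it called 2052 without TMM, 1506 with the block, 659 with only the compared groups, 134 in the low and 1812 in the high set, and 635 without cohort 3 of the wild type. Unstimulated MyD88KO against wild type (9) called 34 with DESeq2, 16 with the block, 4 with only the compared groups and 289 in the high set. TrifKO minus wild type called 88 in the low set and 116 without TrifKO cohort 3 at 2 h (200), and at 4 h (2647) 5867 without TMM, 1691 in the low set, 1661 without wild-type cohort 3 and 1650 without TrifKO cohort 3. Unstimulated TrifKO against wild type (0) called 46 in the low set and 1 without TrifKO cohort 3.

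Library totals without TMM moved the median of all genes to -0.43 and -0.71 in the wild type at 2 and 4 h (-0.05 and -0.07 with TMM), and the share of calls that were higher to 16.8% and 17.4% (46.4% and 46.1%). The share moved to 22.4% and 19.02% for MyD88KO (54.9% and 50.2%), to 18.97% and 24.8% for TrifKO (54.6% and 55.5%), to 34.9% and 86.0% for MyD88KO minus wild type (12.5% and 36.1%), to 87.1% for TrifKO minus wild type at 4 h (49.1%), to 33.3% for unstimulated MyD88KO (44.4%) and to 26.1% for RAW264.7 at 2 h (51.0%). DESeq2 and the block moved it to 53.3% and 51.5% for Suv39h1 loss with Ifnar intact (73.3%), and to 64.1% and 63.5% without Ifnar (84.4%).

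Of the 5 genes in the wild type at 4 h, Fezf2 was not called in the low set (-1.62), Cadps was called without TMM (-1.05) and Bst1 with the block (0.57, adjusted p = 0.0194). With only the compared groups, TrifKO calls appeared for Fezf2 at 2 h (-1.22) and Cadps at 4 h (-1.14). In RAW264.7 cells, Cadps with the control guide was not called without TMM (0.29) or with only the compared groups (0.47), Pltp was called without TMM (-0.24), Cadps under guide 2 was called with the block (0.48 and 0.43), and Bst1 under guide 2 at 2 h was not called with only the compared groups (0.39). The cause was not tested.

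With each library left out in turn, counts ran from 11 to 20 (Suv39h1 loss, Ifnar intact), 9 to 23 (without Ifnar), 39 to 61 (Ifnar), 19 to 189 and 585 to 1291 (MyD88KO minus wild type at 2 and 4 h), 3 to 9 (MyD88KO unstimulated), 0 to 1 (TrifKO unstimulated), 142 to 258 and 181 to 393 (guide 1 at 0 and 2 h), and 252 to 671 and 3.0e2 to 1213 (guide 2). Cadps ran from 3.603 to 5.00 on Suv39h1 loss with Ifnar intact, Bst1 from -1.40 to -1.05 without Ifnar, Fezf2 from -3.02 to -2.24 in TrifKO at 4 h, and Cadps in RAW264.7 cells from 0.23 to 0.62 with the control guide and 0.30 to 0.65 under guide 2 at 2 h.

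Same-numbered cohorts did not all deviate together in the LPS experiment (mean r = 0.205, lowest -0.413). In the RAW264.7 experiment they all deviated together, but weakly (r 0.003 to 0.342, mean 0.123, against a mean of -0.061 for different numbers). The block was not taken as a pairing in either experiment. Wild-type cohort 3 of the LPS experiment nonetheless stood apart from cohorts 1 and 2 in its Xist counts. The block changed no other call of the 5 genes. Low counts of Dpp6 and Cadps in cells with Suv39h1 limit the precision of their folds.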
